A study of Schizosaccharomyces pombe with 12 samples.

Results

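The 9 fission yeast genes described here, SPCC584.03c, SPCC1393.12, SPAC1783.01, SPCC4G3.12c, SPAC25B8.12c, SPAC11D3.02c, SPAC11D3.01c, SPAC1B3.15c and SPAC15E1.02c, are known mostly by a systematic name and were chosen by a measured value, the difference in their RNA level between diploid and haploid cells. They are 9 of the 4857 *S. pombe* genes in the deposited table, and 9 of 9 passed the filter on low counts that left 4584 genes to test. Because the difference between ploidies chose them, it is given below as a description without a test, and tests were made only of their response to MMS. That response shares libraries with the difference, so it is not independent of the choice. Polyadenylated RNA was sequenced in 12 libraries, with 3 replicates for each of 4 groups. Haploid and diploid cultures were either left untreated (NT) or exposed to 0.0075% methyl methanesulfonate (MMS) for 4 h, and ERCC spike-in RNA was added to material from the same number of cells. The haploid was h- with the *smt-0* deletion, the alleles *leu1-32*, *ura4-D18* and *his3D-1*, and *ade6-M210*. The diploid was made by protoplast fusion and was h- on both chromosome sets, homozygous for *smt-0* and for the *leu1*, *ura4* and *his3* alleles, with *ade6-M216* over *ade6-M210*. Both grew in rich YES medium at 32 °C, so that all groups share the *smt-0* deletion, which blocks mating-type switching, and the *his3*, *ura4* and *leu1* markers. Each ploidy is represented by a single strain, so a difference between ploidies and a difference between these strains cannot be told apart.

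A diploid cell carries an extra set of chromosomes, is larger and holds more RNA than a haploid cell, and most genes keep their share of the RNA pool when the genome is duplicated. Genes whose share shifts are therefore read against the bulk of the transcriptome. MMS methylates DNA bases and stalls replication forks, and fission yeast responds to it with checkpoint, repair and stress transcription. RefSeq gives most of the 9 genes a product name but no gene symbol, and lists 2 of them as uncharacterized proteins.

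Total counts ran from 16288362 to 17655750 per library in haploid NT, from 21140150 to 26493886 in haploid MMS, from 16624286 to 19117356 in diploid NT and from 18079041 to 26400719 in diploid MMS. The 9 genes had between 674 and 9301 counts in a library. Levels are given as CPM, the counts of a gene scaled to the TMM-normalized library size, a scale that holds the middle of all genes near a log2 fold change (log2FC) of 0. Scaled to the ERCC spike-ins instead, the median of the 4584 genes shifted by 0.84 (log2) from haploid to diploid NT and by 1.44 from haploid to diploid MMS. From NT to MMS it shifted by -0.60 in haploids and by 0.02 in diploids, and the difference of these responses by 0.61. Every direction below is relative to these shifts unless spike-in scaling is named. Haploid NT library 1 stood apart, with 1.90% of its counts in spike-ins against 3.71% and 3.40% in the other haploid NT libraries. Without it the shift from haploid to diploid NT was 1.22, and that from NT to MMS in haploids was -0.22. Summed counts of 5 markers of M cells, the h- mating type, lay between 5722 and 8215 in the 12 libraries. The h+ markers *map2+* and *map3+* summed to between 999 and 8186, the highest in diploid MMS library 3, and their part in the results was not tested.

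The genes are introduced by what RefSeq (assembly ASM294v3) names their products. SPAC1783.01 is annotated as a methionine synthase reductase, an enzyme class that keeps methionine synthase active by passing electrons from NADPH. SPAC25B8.12c is annotated as a nucleotide-sugar phosphatase and SPAC11D3.02c as an acetyltransferase of the ELLA family. SPCC4G3.12c is annotated as a ubiquitin-protein ligase E3, the class that hands ubiquitin to its targets, and SPCC584.03c as a GTPase regulator. SPAC1B3.15c is annotated as a transporter of vitamin H, which is biotin, a cofactor of carboxylases that cells must take up or make. SPAC11D3.01c belongs to the Con-6 family, named after a conidiation gene of *Neurospora*. SPCC1393.12 and SPAC15E1.02c are listed as uncharacterized proteins of 108 and 148 residues.

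By the coordinates of the deposited table, of which 99.7% of genes share a start or an end with ASM294v3, the 9 genes lie on chromosomes I and III and each is a single exon. SPAC11D3.01c (I:108732-109195) and SPAC11D3.02c (I:109829-110455) are adjacent on the minus strand, 633 bases apart, in the outer part of chromosome I. Also on chromosome I are SPAC1783.01 (2187113-2190744, plus strand), SPAC15E1.02c (3721257-3721816, minus), SPAC25B8.12c (4176460-4178343, minus) and SPAC1B3.15c (4955644-4958764, minus). On chromosome III are SPCC4G3.12c (447034-450197, plus), SPCC1393.12 (823411-824429, plus) and SPCC584.03c (1531314-1535116, minus). The coding sequence is a small part of several of these transcripts, at 32.1% of the exon length in SPCC1393.12, 43.5% in SPCC584.03c, 48.2% in SPAC1783.01 and 48.4% in SPAC25B8.12c.

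What the counts of these genes can hold depends on how overlapping transcripts were counted. Of 151 genes in the table whose every exon base is shared with a gene on the opposite strand, 143 had fewer than 5 reads in each of the 12 libraries, against 5 of 2754 genes with no such base. Reads over bases shared by opposite genes thus entered the counts of neither gene, as in counting that does not use strand. SPAC1783.01 shares 1079 of its 3632 bases (29.7%) with *vps66+*, so its counts come from the other 2553 bases. SPCC1393.12 shares 67 bases with *mrpl20+* upstream of it, and SPAC1B3.15c shares 99 bases with *vma3+* and *vht1+* together. RefSeq also annotates antisense long noncoding RNAs, which have no line in the table, over 100% of SPAC11D3.01c, 100% of SPAC11D3.02c, 78.8% of SPAC1B3.15c, 41.5% of SPCC1393.12, 40.1% of SPCC584.03c and 36.7% of SPAC1783.01, and over smaller parts of SPCC4G3.12c and SPAC25B8.12c. Reads from such a transcript would be counted for the gene, so sense and antisense RNA cannot be told apart in these values. SPCC584.03c also overlaps a coding gene on the opposite strand, SPCC584.02, over 628 bases. That gene was not analysed here, so whether its RNA enters the counts of SPCC584.03c is not known.

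The bases upstream of a gene start hold the sites at which transcription factors act, and they are shown for the members with a match to TGACGT and for the adjacent pair that was higher in diploids. TGACGT, bound by Atf1, the factor of the general stress response, was found on either strand in the 250 bases before the RefSeq start of 3 of the 9 genes, against 5.52% of 5112 protein-coding genes. In SPAC25B8.12c it lies as the palindrome TGACGTCA, whose copies on the sense and antisense strands begin 90 and 88 bases before the RefSeq start. The counts table begins this gene further upstream, at base 4178343, so there the palindrome lies within the first exon. In SPAC15E1.02c and SPCC4G3.12c it is on the antisense strand, so ACGTCA is read, 94 and 57 bases before the RefSeq start. In the sequences below, 5′ to 3′ on the strand of the gene, capitals mark TGACGT or its complement ACGTCA, and CCAAT or its complement ATTGG. Their places in ASM294v3 are III:446631-446784 (SPCC4G3.12c, plus), I:3721837-3722086 (SPAC15E1.02c, minus), I:4178316-4178345 (the site of SPAC25B8.12c, minus), I:110513-110762 (SPAC11D3.02c, minus) and I:109196-109430 (SPAC11D3.01c, minus).
SPCC4G3.12c: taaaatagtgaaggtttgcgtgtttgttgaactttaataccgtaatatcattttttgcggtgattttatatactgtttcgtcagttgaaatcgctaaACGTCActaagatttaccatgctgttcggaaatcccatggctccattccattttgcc
SPAC15E1.02c: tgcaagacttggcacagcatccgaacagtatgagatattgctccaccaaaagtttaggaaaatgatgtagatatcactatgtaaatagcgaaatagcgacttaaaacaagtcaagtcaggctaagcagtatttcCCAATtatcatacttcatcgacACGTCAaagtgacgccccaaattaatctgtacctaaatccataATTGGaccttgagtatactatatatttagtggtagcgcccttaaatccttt
SPAC25B8.12c: aaaactttaacTGACGTCAgtgatgtcgga
SPAC11D3.02c: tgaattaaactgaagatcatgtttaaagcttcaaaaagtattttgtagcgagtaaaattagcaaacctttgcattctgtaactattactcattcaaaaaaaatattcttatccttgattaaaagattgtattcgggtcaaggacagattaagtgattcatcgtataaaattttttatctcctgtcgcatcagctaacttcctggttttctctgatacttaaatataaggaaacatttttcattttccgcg
SPAC11D3.01c: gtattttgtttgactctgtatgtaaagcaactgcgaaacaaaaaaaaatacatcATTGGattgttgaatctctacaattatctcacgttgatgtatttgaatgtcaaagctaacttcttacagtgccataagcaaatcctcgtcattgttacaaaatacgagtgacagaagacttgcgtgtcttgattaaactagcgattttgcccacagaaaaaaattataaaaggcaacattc

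The full window of 250 bases was searched for every gene, also where it runs into another gene or lies within the transcript. For SPCC1393.12 all of it lies within *mrpl20+*, and for SPCC4G3.12c the part nearest the start, 154 bases, is outside the neighbouring gene and is shown above. By the coordinates of the counts table, the windows of SPCC584.03c and SPAC1B3.15c lie wholly within the gene itself. Those of SPAC1783.01, SPAC25B8.12c, SPCC1393.12 and SPAC11D3.01c do so in part. For SPCC4G3.12c the counts table starts the gene at base 447034, downstream of the RefSeq start at 446785. CCAAT, bound by the Php complex, a regulator of iron use, was in 4 of the 9 windows, against 35.3% of all. TTAGTCA, bound by the oxidative stress factor Pap1, was in 1, that of SPAC1B3.15c, against 3.89%, at a place within the gene by the counts table. TTACGTAA, a further Pap1 motif, ACGCGT of MBF, a transcription factor of S phase genes, and CCCCTC of Rst2 were in 0 of 9, against 0.469%, 2.64% and 1.70%. On the sense strand alone TGACGT was in 1 window, TTAGTCA in 0 and CCAAT in 2. A match is a run of letters and not a mapped site. Of the 3 members with TGACGT, SPAC25B8.12c was higher in diploids and SPAC15E1.02c and SPCC4G3.12c were lower.

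Per length of transcript, the 9 genes span most of the range of expression. In haploid NT, SPAC15E1.02c had 316 ± 111 CPM per kb (SD, n = 3), which placed it at percentile 92.0 of the genes tested. SPAC11D3.02c followed with 179 ± 21.1 CPM per kb, then SPAC11D3.01c with 139 ± 9.70, SPAC1B3.15c with 112 ± 10.3, SPCC4G3.12c with 87.7 ± 21.5 and SPCC584.03c with 77.4 ± 1.35. SPCC1393.12 had 61.3 ± 5.57 CPM per kb and SPAC1783.01 had 32.4 ± 5.06. SPAC25B8.12c was lowest at 24.2 ± 0.652 CPM per kb, percentile 17.4.

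Among the 9, 6 were lower in diploid than in haploid cells and 3 were higher, in NT and again in MMS. The libraries of the compared ploidies did not overlap for 9 of 9 in NT and for 9 of 9 in MMS. Among all genes tested 29.3% did not overlap in NT, 19.7% in MMS, and 10.5% in both with the same direction, and nothing is read from the members' count because this contrast chose them. The plot of levels by library shows each gene on its own scale.

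**Figure D1:**
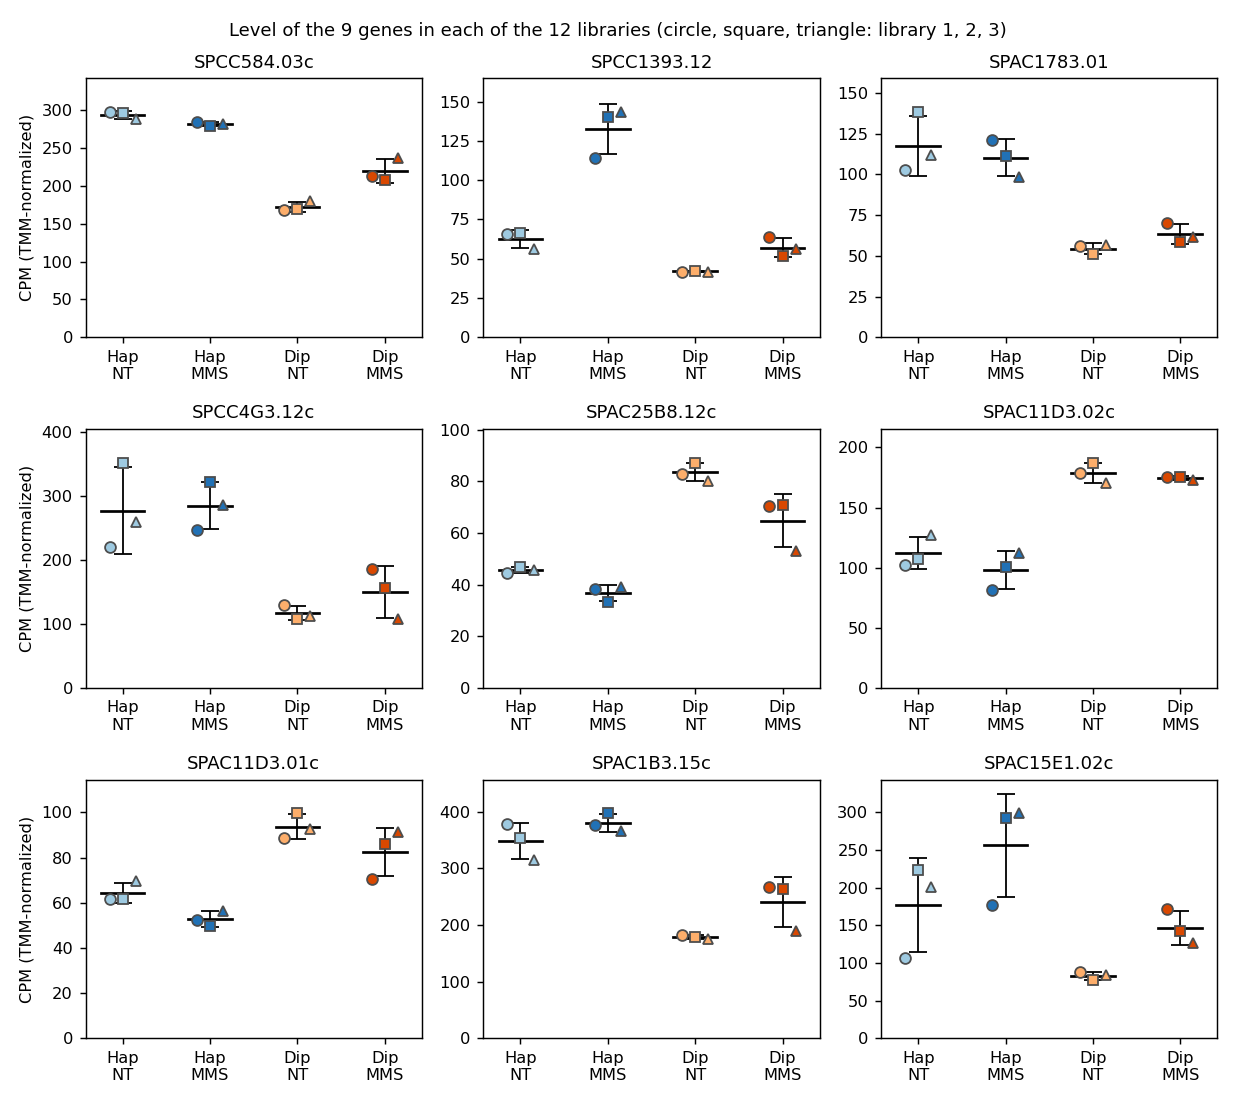
Level of each of the 9 genes as TMM-normalized CPM (y axis, from 0) in the NT and MMS libraries of haploids and then of diploids (x axis). Circles, squares and triangles are libraries 1, 2 and 3, and bars give the mean and SD of 3 libraries. The diploid points lie apart from the haploid points of the same treatment in every panel, below them for 6 genes and above them for SPAC25B8.12c, SPAC11D3.02c and SPAC11D3.01c.

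SPCC4G3.12c, the annotated E3 ligase, had the largest difference in NT. It had 220.2, 352 and 259.9 CPM in the haploid NT libraries 1, 2 and 3 and 129, 108 and 113 CPM in the diploid NT libraries, a log2FC of -1.25 ± 0.21 (SE). With MMS it had 248, 322 and 287 CPM in haploids and 187, 157 and 107 CPM in diploids, a log2FC of -0.93 ± 0.21. Haploid NT library 2 was the highest and diploid MMS library 3 the lowest, and the ploidies were apart in both treatments.

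SPAC1783.01, the annotated reductase, had 103, 138 and 112 CPM in haploid NT and 55.9, 50.8 and 56.6 CPM in diploid NT. Its log2FC was -1.11 ± 0.13 in NT and -0.79 ± 0.13 in MMS, where haploid libraries had 121, 111 and 98.4 CPM and diploid libraries 70.2, 58.5 and 61.7 CPM. The lowest haploid library thus lay above the highest diploid one in each treatment.

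SPAC15E1.02c, a short uncharacterized protein, had the widest relative spread of the 9 in haploid NT, with an SD of 35.0% of its mean. It had 106, 223 and 201 CPM in haploid NT and 88.1, 78.0 and 83.5 CPM in diploid NT, a log2FC of -1.09 ± 0.26. Haploid NT library 1, the one that stood apart in its spike-in share, was much lower than the other haploid libraries and only just above the diploid ones. With MMS the haploid libraries had 177, 292 and 299 CPM and the diploid libraries 171, 142 and 127 CPM, a log2FC of -0.80 ± 0.26. Without haploid NT library 1 the log2FC in NT was -1.36.

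SPAC1B3.15c, the annotated biotin transporter, had 378, 353 and 314 CPM in haploid NT and 182, 178 and 176 CPM in diploid NT, a log2FC of -0.96 ± 0.12. In MMS it had 376, 397 and 366 CPM in haploids and 268, 264 and 189.8 CPM in diploids, a log2FC of -0.66 ± 0.12. Diploid MMS library 3 was close to the diploid NT level, while the other diploid MMS libraries were higher. The same library was the lowest of its group for SPCC4G3.12c, SPAC25B8.12c, SPAC15E1.02c and, by little, SPAC11D3.02c. It was the highest of its group for SPCC584.03c and SPAC11D3.01c. It had the highest h+ marker counts. Of the M markers, *mfm1+* (297), *mfm3+* (648) and *mam1+* (1384) were highest there, *mam2+* (5512) was not, and *mfm2+* (372) was the lowest of its group. The meiosis genes *mei4+* (1539), *mde10+* (2241) and *meu14+* (1034) were highest there, but not *isp3+*. These are raw counts, and this library had 24947726 in total against 26400719 and 18079041 in diploid MMS libraries 1 and 2. Without diploid MMS library 3 the log2FC between ploidies in MMS was -0.51 for SPAC1B3.15c, -0.73 for SPCC4G3.12c, 0.94 for SPAC25B8.12c and -0.71 for SPAC15E1.02c.

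SPCC584.03c, the annotated GTPase regulator, had the narrowest relative spread of the 9 in haploid NT, with 298, 297 and 288 CPM in NT and 285, 279 and 282 CPM in MMS. Diploid libraries had 168, 169 and 179.7 CPM in NT and 214, 208 and 237 CPM in MMS. Its log2FC between ploidies was -0.77 ± 0.07 in NT and -0.36 ± 0.07 in MMS.

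SPCC1393.12, an uncharacterized protein, had a wider difference between ploidies in MMS than in NT. Haploid NT libraries had 65.4, 66.1 and 56.0 CPM against 41.8, 42.4 and 41.4 CPM in diploid NT, a log2FC of -0.58 ± 0.11. With MMS the haploid libraries had 114, 140.3 and 143 CPM and the diploid libraries 63.6, 51.9 and 55.9 CPM, a log2FC of -1.22 ± 0.11. Diploid MMS libraries overlapped haploid NT libraries for this gene.

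The other 3 members were higher in diploids. SPAC25B8.12c, the annotated nucleotide-sugar phosphatase, had 44.3, 46.7 and 45.7 CPM in haploid NT and 82.8, 87.1 and 80.3 CPM in diploid NT, a log2FC of 0.87 ± 0.12. In MMS it had 38.2, 33.1 and 39.0 CPM in haploids and 70.5, 70.8 and 52.9 CPM in diploids, a log2FC of 0.82 ± 0.12. Its 4 groups did not overlap, with haploid MMS lowest, then haploid NT, diploid MMS and diploid NT.

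SPAC11D3.02c, the annotated acetyltransferase, had 102, 107 and 127 CPM in haploid NT, 81.1, 101 and 112 CPM in haploid MMS, 179, 187 and 170.5 CPM in diploid NT and 175, 175 and 173 CPM in diploid MMS. The log2FC between ploidies was 0.67 ± 0.12 in NT and 0.83 ± 0.12 in MMS. Its neighbour SPAC11D3.01c, of the Con-6 family, had 61.8, 61.6 and 69.5 CPM in haploid NT and 88.7, 99.6 and 92.6 CPM in diploid NT, a log2FC of 0.54 ± 0.11. In MMS it had 52.2, 49.6 and 56.5 CPM in haploids and 70.7, 86.0 and 91.2 CPM in diploids, a log2FC of 0.65 ± 0.11. Diploid MMS library 1 of SPAC11D3.01c came closest to the haploid level, where the highest haploid NT library had 69.5 CPM.

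**Figure D2:**
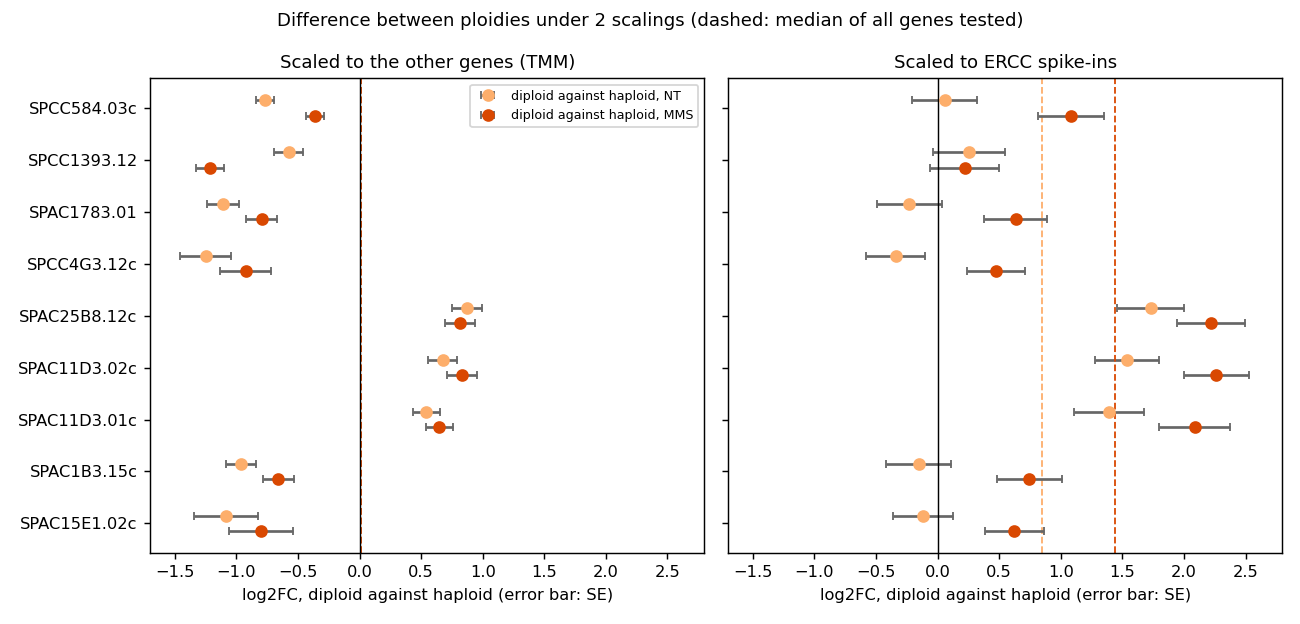
Log2FC of diploid against haploid cells (x axis, error bars are SE) for the 9 genes in NT and MMS, with counts scaled to the other genes (left) or to ERCC spike-ins (right). Dashed lines mark the median of the 4584 genes, at 0.84 in NT and 1.44 in MMS under spike-in scaling, and the 6 genes left of them there are the 6 that lie below 0 on the left.

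Scaled to the spike-ins, the 6 members that lay below the median gene had log2FC values between -0.34 and 0.26 in NT. Cells were counted so that the same number was harvested for each sample. In such bulk samples an error in that count and a change in RNA per cell cannot be told apart. SPCC584.03c had a spike-in scaled log2FC of 0.06, SPCC1393.12 of 0.26, SPAC1783.01 of -0.23, SPCC4G3.12c of -0.34, SPAC1B3.15c of -0.15 and SPAC15E1.02c of -0.12. Without haploid NT library 1 these were 0.43, 0.66, 0.0024, -0.19, 0.30 and -0.15. In MMS the same 6 lay above 0, between 0.22 for SPCC1393.12 and 1.08 for SPCC584.03c. The spike-in scaled log2FC of SPAC25B8.12c was 1.73 in NT and 2.22 in MMS, that of SPAC11D3.02c 1.54 and 2.26, and that of SPAC11D3.01c 1.39 and 2.09. On either scale the 6 were below the median gene and the 3 above it.

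The difference between ploidies chose the genes, and the MMS responses share libraries with it, so they are a different contrast but not independent of the choice. In diploids the 6 members lower in diploids all had a log2FC above 0 and the 3 higher ones a log2FC below 0, and nothing is read from this pattern because of the shared NT libraries. The responses were tested with edgeR's quasi-likelihood test over all 12 libraries, with Benjamini-Hochberg adjustment over 4584 genes. Calls required an absolute log2FC above 0.58 together with an adjusted p below 0.05. In haploids 1 of the 9 was called up and 0 down, against 1.64% and 1.07% of all genes. In diploids 0 of 9 were called, against 0.589% up and 0.349% down. At an unadjusted p below 0.05, 3 of the 9 passed in haploids and 5 in diploids, against 22.3% and 13.6% of all genes. DESeq2 called 1 of the 9 in diploids, SPAC15E1.02c, and 58 genes up and 27 down among all genes. Groups did not overlap between NT and MMS for 4 members in haploids, against 28.2% of all genes, and for 6 in diploids, against 23.7%. The median log2FC of the 9 was -0.06 in haploids and 0.35 in diploids, beside -0.02 and 0.01 over all genes tested.

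SPCC1393.12 rose in haploids exposed to MMS, from 65.4, 66.1 and 56.0 CPM to 114, 140.3 and 143 CPM, so the groups were far apart. The log2FC was 1.09 ± 0.11 (edgeR adjusted p = 0.00147), and 1.07% of genes had a larger absolute change. The adjusted p lay between 0.000777 and 0.0104 when each library was left out in turn. Under spike-in scaling the log2FC was 0.49 with an adjusted p of 0.143 (edgeR), while without haploid NT library 1 it was 0.89 with an adjusted p of 0.0186 (edgeR). In diploids the log2FC was 0.45 ± 0.11 (edgeR adjusted p = 0.0876), from 41.8, 42.4 and 41.4 CPM in NT to 63.6, 51.9 and 55.9 CPM in MMS. The libraries did not overlap, but the change did not pass the test. The haploid MMS libraries that carry the rise in haploids also enter the difference between ploidies, -0.58 in NT and -1.22 in MMS. The rise is therefore not independent of the choice of this gene.

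SPCC584.03c passed the p threshold in diploids and not in haploids, and the test of the difference between these responses did not pass (edgeR adjusted p = 0.999, or 0.161 with the replicate block). In diploids its 3 MMS libraries lay above its 3 NT libraries, with a log2FC of 0.35 ± 0.07 (edgeR adjusted p = 0.0416) that passed the p threshold and not that of the fold. The adjusted p lay between 0.0305 and 0.204 when each library was left out, and 9 of these 12 fits gave a value above 0.05. It was 0.000242 with DESeq2 and 0.00811 with the replicate block (edgeR), both at a log2FC below the fold threshold. In the diploid libraries alone it was 0.104 and under spike-in scaling 0.9998 (both edgeR). In haploids its 3 MMS libraries lay just below its 3 NT libraries, with a log2FC of -0.06 ± 0.07 (edgeR adjusted p = 0.660).

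SPAC15E1.02c had the largest diploid response of the 9, from 88.1, 78.0 and 83.5 CPM in NT to 171, 142 and 127 CPM in MMS. The groups did not overlap, and the log2FC was 0.82 ± 0.26, but the adjusted p was 0.159 (edgeR). With the culture as a replicate block the log2FC was 0.81 and the adjusted p 0.00327 (edgeR), and the gene was called. It was also called by DESeq2 (adjusted p = 0.0411), in a fit of the 6 diploid libraries alone (edgeR adjusted p = 0.0332), and without haploid NT library 1 (edgeR adjusted p = 0.0386). Its diploid NT libraries, low against haploid NT, also enter the difference that chose the gene, so these calls are not independent of the choice. In haploids the log2FC was 0.53 ± 0.26 (edgeR adjusted p = 0.248). Its 3 same-numbered pairs had MMS minus NT differences of 0.73, 0.39 and 0.57 on the log2 scale, and with the block the adjusted p was 0.00581 (edgeR) at a log2FC of 0.56, below the fold threshold.

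The other 6 members did not pass the test in haploids or diploids. SPAC25B8.12c had log2FC values of -0.31 in haploids and -0.37 in diploids, with MMS libraries below NT libraries in both (edgeR adjusted p = 0.147 and 0.165). SPAC11D3.01c and SPAC11D3.02c had -0.28 and -0.19 in haploids and -0.18 and -0.04 in diploids. SPAC1B3.15c had 0.12 in haploids and 0.43 in diploids (edgeR adjusted p = 0.589 and 0.123). Without diploid MMS library 3 its diploid value was 0.57 (edgeR adjusted p = 0.0157), just under the fold threshold. SPAC1783.01 had -0.09 and 0.22, and SPCC4G3.12c had 0.04 and 0.37. Under the replicate block SPAC25B8.12c, SPAC1B3.15c and SPCC1393.12 passed the p threshold in diploids, with adjusted p of 0.0432, 0.0324 and 0.0419 (edgeR), and SPAC11D3.01c in haploids, with 0.0356, each with an absolute log2FC below 0.58.

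**Figure D3:**
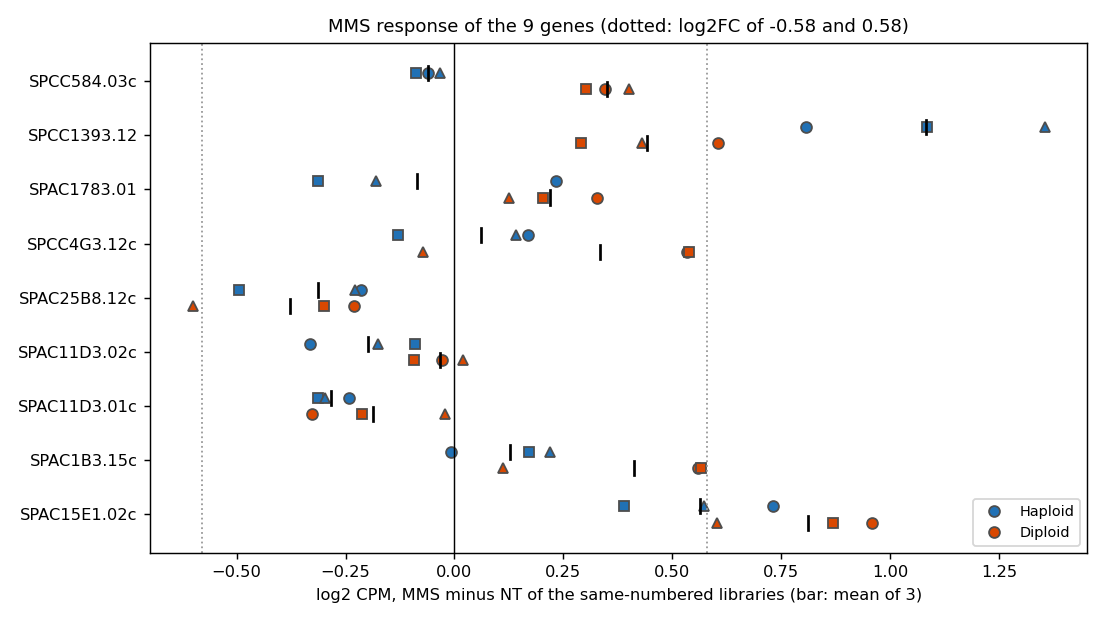
MMS minus NT difference in log2 CPM between same-numbered libraries (x axis) for the 9 genes in haploids and diploids. Circles, squares and triangles are pairs 1, 2 and 3 and black bars their mean. SPCC1393.12 in haploids lies between 0.81 and 1.35, SPAC15E1.02c in diploids between 0.60 and 0.96, and SPCC584.03c lies left of 0 in haploids and right of it in diploids.

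The test of whether the MMS response differed between ploidies, an interaction term called at an adjusted p below 0.05 alone, passed for 0 of the 9 and for 0% of all genes in edgeR, where 155 genes had an unadjusted p below 0.05. DESeq2 called 1 gene, and it was none of the 9. The response of SPCC1393.12 in diploids minus that in haploids was -0.64 ± 0.16 (edgeR unadjusted p = 0.00206, adjusted p = 0.999). That of SPCC584.03c was 0.41 ± 0.10 (edgeR unadjusted p = 0.00192, adjusted p = 0.999). The other 7 members had differences between -0.06 and 0.33 with unadjusted p above 0.1 in edgeR. The interaction equals the log2FC between ploidies in MMS minus that in NT, the contrast that chose the genes. It is therefore not independent of the choice, and nothing is read from the unadjusted p. Under spike-in scaling the difference of SPCC1393.12 was -0.04, or -0.44 without haploid NT library 1.

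Each tested gene whose protein is related by sequence to a member had a smaller absolute log2FC between ploidies than that member, in NT and in MMS. The members were chosen for this difference and their relatives were not, so nothing is read from that order. Translated RefSeq coding sequences were compared by blastp at an E value below 1e-10, which gave relatives for 6 of the 9 genes and none for SPCC1393.12, SPAC11D3.02c and SPAC15E1.02c. The closest, *vht1+*, the plasma membrane biotin transporter, lies next to SPAC1B3.15c and is 51.5% identical to it over 530 residues. *vht1+* had 527 ± 11.4 CPM in haploid NT and 493 ± 40.9 CPM in diploid NT (SD, n = 3), a log2FC of -0.10, against -0.96 for SPAC1B3.15c. In MMS the log2FC between ploidies was 0.20 for *vht1+* and -0.66 for SPAC1B3.15c. The response of *vht1+* to MMS in diploids was 0.44, close to the 0.43 of SPAC1B3.15c, and neither passed the test (edgeR adjusted p = 0.104 and 0.123).

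Other relatives of SPAC1B3.15c are carboxylic acid and nicotinic acid transporters. Of these SPAC1039.04 had a log2FC of -0.48 in haploids exposed to MMS (edgeR adjusted p = 0.0118), below the fold threshold, and *tna1+* had a log2FC between ploidies of 0.53 in NT, opposite in sign to that of SPAC1B3.15c. SPBC12C2.03c, a further methionine synthase reductase that is 45.8% identical to SPAC1783.01, had 110 ± 16.1 CPM in haploid NT and 87.3 ± 1.01 CPM in diploid NT, a log2FC of -0.33 beside -1.11. *odr1+*, a haloacid dehalogenase-like hydrolase 44.9% identical to SPAC25B8.12c, had a log2FC of 0.26 beside 0.87. SPBP4H10.07, an E3 ligase 47.5% identical to SPCC4G3.12c over 122 residues, had a log2FC of 0.04 beside -1.25. SPAC31A2.10, a Ran GTPase binding protein 29.0% identical to SPCC584.03c, had -0.16 beside -0.77. SPAC869.09, a Con-6 family protein 42.9% identical to SPAC11D3.01c, had 10.3 ± 3.34 CPM in haploid NT and 10.2 ± 0.804 CPM in diploid NT. No test was made of these differences between relatives.

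Most genes beside the members had small differences between ploidies. Among the 44 tested genes within 3 positions of a member, the members themselves left out, the median absolute log2FC between ploidies in NT was 0.11, beside 0.16 over all genes. An absolute value above 0.58 was reached by 4 of the 44 in NT and by 1 in MMS, against 5.80% and 4.84% of all genes. In MMS the median absolute value was 0.17, beside 0.14 over all genes. Of the 15 tested genes directly beside a member, 9 had the sign of that member in NT. The largest absolute value among the 15 was that of *bud6+*, an actin-interacting protein 293 bases from SPAC15E1.02c, at -0.59 in NT and -0.51 in MMS. On the other side *rpl42+*, a ribosomal protein gene, had 0.30. *sup35+*, the translation release factor beside SPCC584.03c, had 0.31 against -0.77, and *mrpl20+*, a mitochondrial ribosomal protein gene that overlaps SPCC1393.12, had 0.23 against -0.58. Around the SPAC11D3 pair, which was higher in diploids, the 6 other genes within 3 positions had values above 0 in MMS, between 0.18 and 0.41. The median of all genes was 0.01, and in NT the 6 were not all above 0. SPAC11D3.19, directly beside SPAC11D3.01c, had 0.45 in NT and 0.37 in MMS, and SPAC11D3.03c, directly beside SPAC11D3.02c, had -0.03 and 0.18. Further out in NT, SPAC11D3.04c had 0.32 and *pdc101+*, a putative pyruvate decarboxylase gene, had 0.89. The transporter gene *mfs2+* had -0.006 and SPAC1F8.08 had 0.04. These genes are named after their values were seen.

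**Figure D4:**
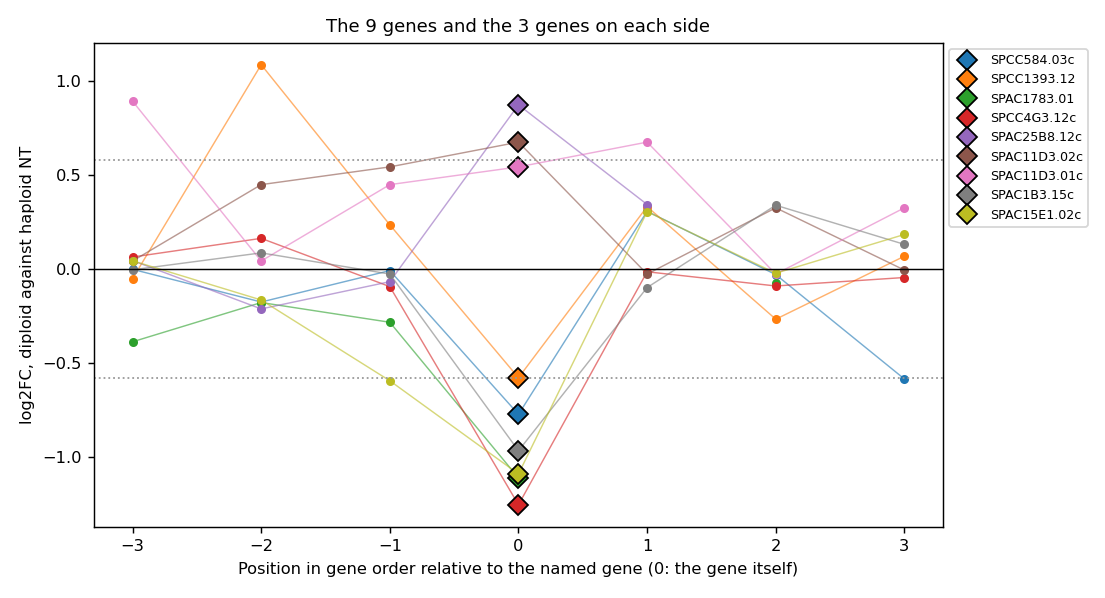
Log2FC of diploid against haploid NT (y axis) for the 9 genes (diamonds, at position 0) and the 3 genes on each side in gene order (x axis), joined by a line for each member. Dotted lines are at -0.58 and 0.58, beyond which 4 of the 44 tested neighbours lie, the point of SPAC11D3.02c beside SPAC11D3.01c not counted, and gaps are genes that were not tested.

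Genes whose log2 CPM followed a member most closely over the 12 libraries are named as a description, since the libraries share their groups and any gene that differs by ploidy follows the members in part. SPAC15E1.02c was followed most closely by *cut4+*, a scaffold subunit of the anaphase-promoting complex (Pearson r = 0.990), then by the septin *spn5+* and by *lvs1+*. In deviations from the group means its r with *cut4+* was 0.976. With spike-in scaled values its r with *cut4+* was only 0.519, and *cut4+* ranked 236. SPCC4G3.12c was followed by the alpha-glucosidase *gto2+* (r = 0.986), the serine protease *htr11+* and *ach1+*, and its r with *gto2+* in deviations was 0.912. SPAC25B8.12c was followed by *ecl2+* (r = 0.979), SPAC1F12.04c and the carbonic anhydrase *nce103+*. SPCC584.03c was followed by the lysophospholipase *nte1+* (r = 0.979), *mss1+* and the peroxin *pex32+*, and SPAC1783.01 by *mdl1+* (r = 0.977), *mss1+* and *uap2+*.

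For the remaining members the closest were *abc3+*, a multidrug resistance-associated transporter (r = 0.972), *tad3+* and *mas5+* for SPAC11D3.01c, and *iah1+* (r = 0.947), SPCC569.02c and *ftm4+* for SPAC11D3.02c. SPAC1B3.15c was followed by the *wtf* antidote gene *wtf19+* (r = 0.963), *lsb4+* and *cbc3+*. SPCC1393.12 was followed by *skp1+*, a subunit of SCF ubiquitin ligases (r = 0.963), *pgc1+* and SPBC11C11.06c. In deviations from the group means the 27 r values ran from -0.199, for *pgc1+* with SPCC1393.12, to 0.976. With spike-in scaled values only 5 of these 27 stayed among the 3 closest. The 27 r values then ran from 0.519, for *cut4+* with SPAC15E1.02c, to 0.997.

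Lists of related function were counted beside the members, at an adjusted p below 0.05 without a fold threshold. Of 16 general stress genes, whose factor Atf1 binds TGACGT, 2 rose and 1 fell in haploids exposed to MMS, against 3.58% and 2.29% of all genes, and 0 rose and 1 fell in diploids, against 0.916% and 0.633%. The catalase gene *ctt1+* rose by 1.66 ± 0.32 (edgeR adjusted p = 0.0149) and *plr1+*, which encodes pyridoxal reductase, by 1.42 ± 0.18 (edgeR adjusted p = 0.00182) in haploids. *cta3+*, a cation-transporting ATPase gene, fell by 0.52 in haploids (edgeR adjusted p = 0.0143) and by 0.45 in diploids (edgeR adjusted p = 0.0484). The median log2FC of the 16 was 0.24 in haploids and 0.21 in diploids, beside -0.02 and 0.01 over all genes. Of 4 vitamin transporter genes 3 could be tested, and 1 of them, the thiamine transporter gene *thi9+*, fell in haploids, by 0.57 (edgeR adjusted p = 0.0379), and 0 changed in diploids.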

How the data were processed

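The authors aligned paired-end reads with STAR 2.7.0e and assigned them with featureCounts, and deposited raw counts per gene. Build and strand setting: not given in the sources used here. A gene was dropped if 2 or more libraries had fewer than 5 reads, as were 2 identical copies, which left 4584. Counts were fitted with edgeR 4.0.16 (R 4.3.3, TMM, quasi-likelihood, a mean per group over 12 libraries, common dispersion 0.0247), checked on simulated data. Spike-in scaling used 60 of 92 ERCC transcripts. Alternatives were DESeq2 1.42.0, other scalings, filters and fits, and each library left out. Same-numbered NT and MMS libraries of a ploidy had residual correlations from 0.441 to 0.711. Libraries with different numbers had values from -0.689 to 0.571, the highest for haploid NT 2 with haploid MMS 3. Per the labels cultures were divided between NT and MMS, so same-numbered libraries were taken as pairs for the replicate block. The labels do not state which libraries share a culture. Relatives came from blastp 2.17.0 and tables were read with Python 3.11.15. Named genes were the members, their nearest neighbours, relatives, the 3 genes most alike and up to 2 per list in each MMS comparison. Members and lists were chosen with earlier results of these data known. The study describes its replicates as biological.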

Additional observations from a re-analysis of the deposited data

Results flagged for a closer look

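SPCC584.03c had MMS minus NT differences below 0 in every haploid pair and above 0 in every diploid pair. The 3 haploid pairs of same-numbered libraries had MMS minus NT differences of -0.06, -0.09 and -0.03 on the log2 scale, and the 3 diploid pairs had 0.34, 0.30 and 0.40. The response in diploids minus that in haploids was 0.41 (log2), and edgeR's interaction test gave an adjusted p of 0.999, so the difference did not pass the test over all genes. The haploid change of -0.06 was smaller than its SE of 0.07. The interaction also holds the difference between ploidies that chose the gene, so it is not independent of the choice.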

How the results depend on the processing

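The count of members called in haploids was 1 under every alternative except spike-in scaling, where it was 0 and SPCC1393.12 had a log2FC of 0.49 (adjusted p = 0.143, edgeR). In diploids it was 0, but 1, SPAC15E1.02c, with DESeq2, in the 2 groups alone and with the replicate block, where its log2FC was 0.82, 0.82 and 0.81. With each library left out it was 1 in haploids and from 0 to 1 in diploids. No interaction was called (0). The replicate block changed no other call. All 9 members kept their direction between ploidies with each library left out. With spike-in scaling 7 of 9 kept it in NT (5 without haploid NT library 1, an alternative chosen after seeing the data) and 3 in MMS (3 without that library), by construction, as the scale moves all genes.

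The members that turned in NT under spike-in scaling were SPCC584.03c (0.058, and 0.43 without the library), SPCC1393.12 (0.26 and 0.66) and, only without it, SPAC1783.01 (0.0024) and SPAC1B3.15c (0.30). Those that turned in MMS were SPCC584.03c (1.08 and 1.08), SPCC1393.12 (0.22 and 0.22), SPAC1783.01 (0.63 and 0.63), SPCC4G3.12c (0.47 and 0.47), SPAC1B3.15c (0.74 and 0.74) and SPAC15E1.02c (0.62 and 0.62). In haploids the MMS log2FC turned for SPCC4G3.12c (-0.48 and -0.32) and SPAC1B3.15c (-0.49 and -0.042), and the interaction for SPAC25B8.12c (0.49 and 0.18). With each library left out, the haploid log2FC of SPAC1783.01 ran from -0.19 to 0.039, that of SPCC4G3.12c from -0.11 to 0.25, and the interaction of SPAC25B8.12c from -0.13 to 0.071. Counts of all genes called in haploids were 75 up and 49 down with edgeR, 93 and 82 with DESeq2, 111 and 98 with the block, and in diploids 27 and 16, 58 and 27, and 69 and 59.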
